A study of Arabidopsis thaliana with 30 samples.

Results

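The genes described here are 41 nuclear genes of the photosynthetic apparatus of Arabidopsis thaliana, out of 32833 genes in each of 2 deposited count tables. They were chosen by role and not by measured values, though earlier results of these data were known. The set holds 4 LHCA genes for the antenna of photosystem I, 13 LHCB genes for the antenna of photosystem II, 10 PSA genes for subunits of photosystem I and 9 PSB genes for subunits of photosystem II. It also holds 5 Rubisco genes, which are the 4 RBCS genes of the small subunit and RCA, the gene of Rubisco activase. Of the 41 genes 40 passed the filter on low counts in both tables. The other one, LHB1B2 (AT2G34420), was listed at 0 in all 30 libraries. Over 1045 bases, the full length of its annotated mRNA, it overlaps AT2G08665, which lies on the opposite strand. How reads in such overlaps were counted or dropped is not given in the sources used here, so the 0 does not show that the gene was silent.

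Photosystem II splits water and photosystem I reduces ferredoxin, both fed with light energy by chlorophyll-binding antenna proteins. Rubisco then fixes carbon dioxide with the help of Rubisco activase. These proteins are encoded in the nucleus, made in the cytosol and imported into the chloroplast, where they join subunits encoded by the chloroplast itself. Their messenger RNAs are among the most abundant in green tissue, and many of them are known to follow light, sugar, the circadian clock and the state of the chloroplast.

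The study profiled 3 mutant lines described as sensitive to submergence, by sequencing messenger RNA selected with oligo-T from whole seedlings, labelled 6 days old, after submergence or mock treatment. The extraction text speaks of germinating seeds or seedlings without saying which libraries are which. The bak set compared bak1-3 bkk1-1 under submergence and in mock, a line with T-DNA insertions in the genes of the co-receptor kinases BAK1 and BKK1, with the wild type Col under submergence and in mock. The tcp set compared tcp21 under submergence and in mock, and tcpq under submergence and in mock, with Col libraries of its own under submergence and in mock. The lines tcp21 and tcpq are given as CRISPR lines, TCP21 being a class I TCP transcription factor also known from the circadian clock. The genes edited in tcpq, the number of independent lines, the length and light regime of submergence and the way seedlings were pooled are not given in the labels used here. Each of the 10 groups had 3 libraries, and the labels do not say that these were separate cultures. The p-values therefore speak only of variation among these libraries, which may be technical. The 2 tables were never fitted together.

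Library totals lay between 17466180 and 33957452 counts. As a check of the labels, BAK1 had 26.0 to 85.7 CPM in bak1-3 bkk1-1, against 69.6 to 143 CPM in its Col, and BKK1 (SERK4 in the reference) had 11.5 to 19.7 CPM, against 30.9 to 52.2 CPM. TCP21 (AT5G08330, TCP11 in the reference) had 19.9 to 33.0 CPM in tcp21 and 19.9 to 64.9 CPM in tcpq, against 73.5 to 102 CPM in its Col. CPM is the usual depth-scaled count unit, here on library sizes adjusted by TMM, the trimmed mean method of edgeR. One of the tcp-set Col mock libraries, replicate 1, carries the genotype of bak1-3 bkk1-1 in one label field and Col in the others, and its BAK1 level of 78.7 CPM lay beside the 75.3 and 82.2 CPM of the other Col mock libraries. Some of the counts of called genes that rest on it are given with and without it, and most other results with it only. Seed storage and late embryo genes, 12 in the list, summed to 151 to 279 CPM in bak-set Col under submergence. They summed to 298 CPM in bak-set Col mock replicate 2, and to at most 11.3 CPM in all libraries of the other groups and in the other bak-set Col mock libraries. Transcripts encoded in the organelles made up 0.12% to 0.72% of counts in tcp21, and at most 0.09% elsewhere.

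The share of all counts held by the 41 genes moved in opposite directions in the 2 sets. In the bak set the genes held 5.39%, 7.14% and 7.17% in the bak1-3 bkk1-1 submergence libraries, against 11.8%, 12.2% and 12.7% in its mock libraries. Col of that set held 8.52%, 8.38% and 7.58% under submergence, against 11.8%, 12.6% and 13.0% in mock. Every submerged library of the bak set lay below every mock library. In the tcp set the share was 15.4%, 15.4% and 15.3% in Col under submergence, against 12.5%, 14.2% and 13.2% in mock, and it was 15.4%, 14.7% and 14.2% in tcpq under submergence, against 9.85%, 10.8% and 10.4% in mock. These groups did not overlap, and the submerged libraries were the higher ones. In tcp21 the share was 16.1%, 15.7% and 15.7% under submergence, against 16.0%, 16.5% and 16.6% in mock, which overlapped. In RNA from whole seedlings, fewer green cells and less of an RNA in each green cell cannot be told apart. By set, the Rubisco genes held 4.71%, 4.48% and 4.42% of counts in tcp21 mock, against 2.89%, 3.19% and 2.93% in Col mock, without overlap. The LHCB genes held 3.37%, 3.83% and 3.57% in tcpq mock, against 4.53%, 5.36% and 4.93% in Col mock, also without overlap.

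**Figure D1:**
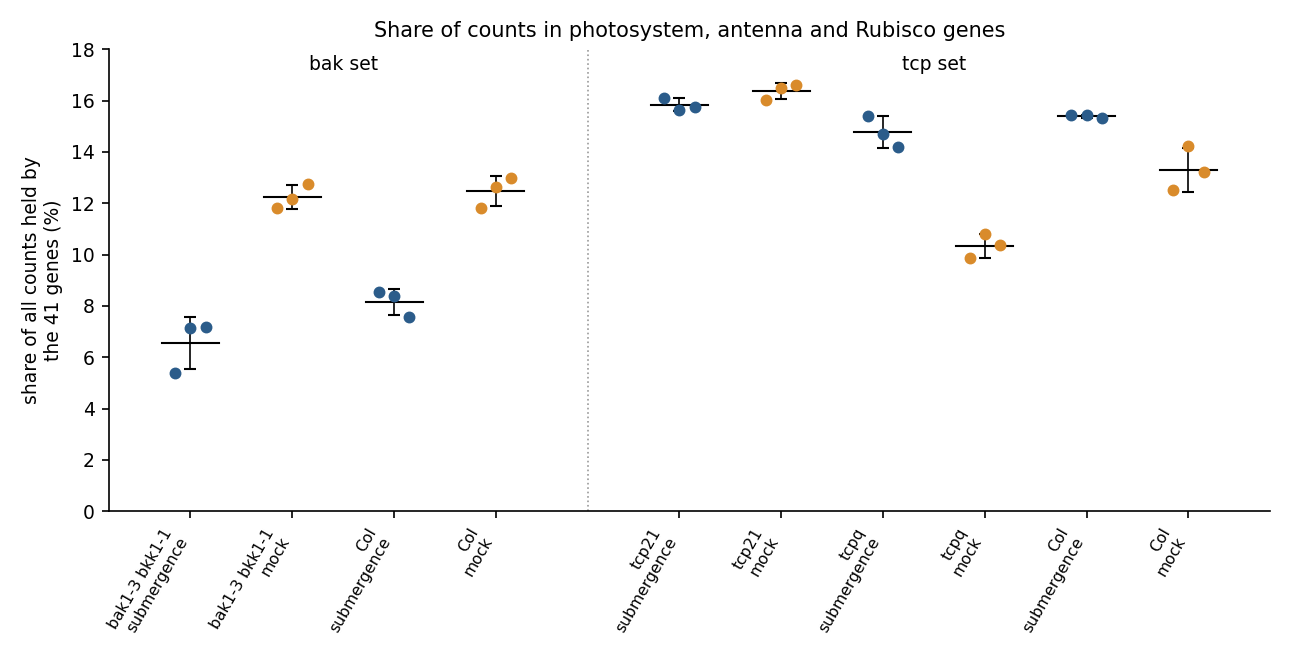
Share of all counts held by the 41 genes in percent, 1 point per library, for the 4 groups of the bak set and the 6 groups of the tcp set, with submergence in blue and mock in orange. Lines and bars give the mean and SD of 3 libraries. Submerged bak-set libraries lie between 5.39% and 8.52%, below their mock libraries, and tcpq mock libraries lie between 9.85% and 10.8%, the lowest of the tcp set.

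Per length, the antenna gene CAB1 (LHCB1.3, AT1G29930) and the small subunit gene RBCS1A (AT1G67090) stood at the top in unstressed Col of both sets. Levels were set per kilobase of the longest annotated mRNA. In bak-set Col mock, CAB1 had 10291 ± 860.3 and RBCS1A 9844 ± 432 CPM per kb (SD, n = 3), and these 2 did not differ beyond their spread. In tcp-set Col mock, CAB1 had 9363 ± 1117 and RBCS1A 7417 ± 555 CPM per kb. LHCA4 led the antenna genes of photosystem I with 4312 ± 265 CPM per kb in bak-set Col mock and 5498 ± 182 in tcp-set Col mock. PSBR, a small subunit on the water-splitting side of photosystem II, led the PSB genes with 3691 ± 237 and 4578 ± 746 CPM per kb in the same groups. At the low end of the tested genes stood PSAG, which binds at the edge of photosystem I, with 23.2 ± 5.07 and 60.7 ± 12.9 CPM per kb, and PSAE-1, on its stromal side, with 73.6 ± 17.9 and 179 ± 33.7. Both overlap genes on the opposite strand, PSAG over 479 bases and PSAE-1 over 436, and reads dropped or added there would change these levels and their place in the order.

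Some paralogs did not keep step with their families, and the 250 bases before their annotated starts are shown because these genes stand at the ends of the ranges described below. LHCB2.3 (AT3G27690), LHB1B1 (LHCB1.4, AT2G34430) and CAB2 (LHCB1.1, AT1G29920) encode trimer proteins of the photosystem II antenna, and RBCS2B (AT5G38420) and RBCS1B (AT5G38430) encode Rubisco small subunits. The sequences are from RefSeq, build TAIR10.1, read 5′ to 3′ towards the gene. They lie at chr3:10255656-10255905, plus strand for LHCB2.3, at chr2:14524357-14524606, plus strand for LHB1B1, at chr1:10475970-10476219, minus strand for CAB2, at chr5:15382072-15382321, minus strand for RBCS2B and at chr5:15385321-15385570, minus strand for RBCS1B. Capitals mark matches to 6 motifs searched on both strands: the G-box CACGTG, the I-box GATAAG, the CCA1 binding site AAAATCT, the evening element AAAATATCT, the class I TCP site GTGGGNCC and CCAATC.
LHCB2.3: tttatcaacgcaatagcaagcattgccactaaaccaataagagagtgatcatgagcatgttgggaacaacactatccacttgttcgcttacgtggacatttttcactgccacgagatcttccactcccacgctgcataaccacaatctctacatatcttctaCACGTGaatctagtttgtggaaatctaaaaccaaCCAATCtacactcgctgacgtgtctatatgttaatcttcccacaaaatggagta
LHB1B1: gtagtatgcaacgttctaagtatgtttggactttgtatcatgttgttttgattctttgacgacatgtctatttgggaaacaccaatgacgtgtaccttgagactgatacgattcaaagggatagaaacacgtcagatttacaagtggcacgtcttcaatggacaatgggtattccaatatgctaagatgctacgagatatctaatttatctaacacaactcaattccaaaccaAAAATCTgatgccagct
CAB2: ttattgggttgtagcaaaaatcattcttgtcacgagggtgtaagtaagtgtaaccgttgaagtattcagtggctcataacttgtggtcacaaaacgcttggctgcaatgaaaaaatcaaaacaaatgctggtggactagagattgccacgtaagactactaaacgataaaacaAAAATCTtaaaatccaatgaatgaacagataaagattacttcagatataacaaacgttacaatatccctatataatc
RBCS2B: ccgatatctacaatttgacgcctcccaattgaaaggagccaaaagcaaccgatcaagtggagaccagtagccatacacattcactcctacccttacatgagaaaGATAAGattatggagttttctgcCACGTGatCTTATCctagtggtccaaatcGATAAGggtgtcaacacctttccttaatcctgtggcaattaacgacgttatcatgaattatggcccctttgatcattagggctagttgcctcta
RBCS1B: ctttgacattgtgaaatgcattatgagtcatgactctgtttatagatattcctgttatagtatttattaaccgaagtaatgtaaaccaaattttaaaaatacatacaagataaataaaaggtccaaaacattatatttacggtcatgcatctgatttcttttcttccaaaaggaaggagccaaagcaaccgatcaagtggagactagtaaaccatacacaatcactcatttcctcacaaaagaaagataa
LHCB2.3 overlaps AT3G27700 on the opposite strand over 595 bases, and whether reads were counted by strand is not given in the sources used here, so its counts may hold reads of that gene or lack reads dropped in the overlap. In all 14 of the 41 genes overlap a gene on the opposite strand, among them PSAG (479 bases), PSAE-1 (436 and 9), LHCB6 (358 and 103), LHCB3 (186) and PSAH2 (174). The LHCB2.3 window holds a G-box 88 to 83 bases and CCAATC 54 to 49 bases before the start. LHB1B1 holds the CCA1 site 17 to 11 bases and CAB2 holds it 77 to 71 bases before the start. From the annotated start to the coding start there are 0 bases in LHCB2.3, 211 in LHB1B1 and 77 in CAB2. These positions are therefore not comparable between genes. The RBCS2B window holds a G-box and 3 I-boxes, and the RBCS1B window has none of these letters, which says nothing about any factor. The annotated start lies 93 bases before the coding start in RBCS2B and 165 bases before it in RBCS1B. The last bases of the RBCS1B window resemble the RBCS2B stretch that runs up to its first I-box. Matching letters may therefore lie beyond the RBCS1B window, and the windows do not show that the 2 genes differ in these motifs. Over the 41 genes, 12 held CCAATC (29.3%), against 10.2% of 27443 windows of protein-coding genes. Of these 12, 7 were LHCB and 3 LHCA genes, and none was a PSA gene. The CCA1 site was in 12 genes (29.3%, against 16.5% of all windows), 6 of them PSA genes, the I-box in 11 (26.8%, against 12.3%) and the G-box in 8 (19.5%, against 6.49%). The evening element and the class I TCP site were in 0 of the 41 windows, against 2.36% and 1.09% of all windows.

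Submergence was followed by lower levels of nearly the whole set in the bak set. In bak1-3 bkk1-1, 37 of the 40 tested genes fell and 0 rose under submergence, where 26.4% of all tested genes fell and 26.3% rose. In Col of the same set, 35 fell and 0 rose, where 24.1% of all tested genes fell and 25.4% rose. A gene was called at an adjusted p below 0.05 in edgeR's quasi-likelihood test with Benjamini-Hochberg adjustment over all tested genes. At an unadjusted p below 0.05, and by DESeq2, also 0 genes rose in either genotype. The median log2 fold change, in which 1 unit is a 2-fold change, was -0.85 over the 40 genes in bak1-3 bkk1-1, against -0.02 over all genes, and -0.54 in Col, against 0.01. Without the Col mock library that held seed transcripts, 29 genes fell in Col.

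The photosystem II antenna and the Rubisco genes fell by more than the photosystem I genes at the median. In bak1-3 bkk1-1 the medians were -1.06 for the Rubisco genes, -0.96 for LHCB, -0.91 for PSB, -0.77 for PSA and -0.61 for LHCA. In Col they were -0.86, -0.85, -0.68, -0.50 and -0.44 in the same order of sets. These differences between sets were not tested, and the ranges of the sets overlapped. By set, 4 of 4 LHCA, 11 of 12 LHCB, 9 of 10 PSA, 8 of 9 PSB and 5 of 5 Rubisco genes fell in bak1-3 bkk1-1, and 3, 11, 8, 8 and 5 in Col.

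Among the antenna genes CAB2 fell the furthest in both genotypes. It had 1165, 1486 and 1386 CPM in the bak1-3 bkk1-1 submergence libraries, against 4284, 4631 and 4641 CPM in mock. In Col it had 2054, 2063 and 1977 CPM under submergence, against 4208, 4592 and 5162 CPM in mock. All submerged libraries lay below all mock libraries, and those of the mutant were the lowest. The log2 fold change was -1.75 ± 0.12 (adjusted p = 1.23e-09) in bak1-3 bkk1-1 and -1.20 ± 0.12 (adjusted p = 1.41e-07) in Col. CAB1, which lies in the same cluster of 3 CAB genes on chromosome 1, had log2 fold changes of -0.64 ± 0.15 and -0.41 ± 0.15 in the same order. LHB1B1 did not pass the test in either genotype. It had 1103, 1696 and 1819 CPM in submerged bak1-3 bkk1-1, against 1529, 1953 and 2117 CPM in mock, and 1825, 2027 and 1505 CPM in submerged Col, against 1485, 1792 and 1856 CPM in mock. These groups overlapped, with log2 fold changes of -0.28 ± 0.18 (adjusted p = 0.204) and 0.06 ± 0.18 (adjusted p = 0.797). Summed over the LHCB1 genes, parts of whose sequences are identical, the log2 fold change was -0.80 ± 0.14 in bak1-3 bkk1-1 and -0.52 ± 0.14 in Col.

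The LHCB2 genes, whose proteins are moved between the photosystems when phosphorylated, all fell in both genotypes. Their sum had 1410.3, 1822 and 1882 CPM in submerged bak1-3 bkk1-1, against 4682, 4642 and 5231 CPM in mock. In Col it had 2414, 2341 and 2256 CPM under submergence, against 4394, 5020.2 and 5024 CPM in mock. The groups did not overlap, and the log2 fold changes were -1.51 ± 0.12 (adjusted p = 1.19e-08) and -1.04 ± 0.12 (adjusted p = 1.13e-06). LHCB3, the partner of LHCB1 and LHCB2 in outer trimers, had -1.28 ± 0.14 and -0.94 ± 0.14, and LHCB6, a minor antenna protein that links such trimers to the core, had -1.26 ± 0.13 and -0.89 ± 0.13. In the photosystem I antenna LHCA4 had 2305, 3279 and 3002 CPM in submerged bak1-3 bkk1-1, against 5376, 5652 and 5848 CPM in mock, and 3592, 3888 and 3428 CPM in submerged Col, against 5196, 5713 and 5843 CPM in mock. Its log2 fold changes were -0.97 ± 0.13 (adjusted p = 3.84e-06) and -0.62 ± 0.13 (adjusted p = 0.000490). LHCA2, its neighbour in that antenna, had -0.49 ± 0.13 (adjusted p = 0.00435) and, not called, -0.26 ± 0.13 (adjusted p = 0.114).

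In photosystem I, PSAH2, a subunit of the docking side for mobile antenna, gave the smallest p among the PSA genes in both genotypes. It had 126, 184 and 162 CPM in submerged bak1-3 bkk1-1, against 299.5, 322 and 313 CPM in mock, and 211, 174 and 208 CPM in submerged Col, against 333, 316 and 371 CPM in mock. Its log2 fold changes were -0.98 ± 0.12 (adjusted p = 2.08e-06) and -0.78 ± 0.12 (adjusted p = 3.1e-05), and the groups did not overlap. PSAL, which lies beside it in the complex, had the smallest changes, -0.36 ± 0.12 (adjusted p = 0.0146) and, not called, -0.19 ± 0.12 (adjusted p = 0.190). In photosystem II, PSBQA, PSBO2 and PSBP-1 belong to the oxygen-evolving complex. PSBQA had log2 fold changes of -1.07 ± 0.12 and -0.78 ± 0.12, PSBO2 of -0.91 ± 0.13 and -0.82 ± 0.13, and PSBP-1 of -0.99 ± 0.13 and -0.70 ± 0.13. PSBR alone of the PSB genes was called in neither genotype. It had 1947, 2804 and 2767 CPM in submerged bak1-3 bkk1-1, against 2721, 3061 and 2958 CPM in mock, and 2542, 2784 and 2579.8 CPM in submerged Col, against 2723, 2866 and 3092 CPM in mock, with overlap in both (-0.22 ± 0.13 and -0.13 ± 0.13).

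RCA and RBCS1B stood at the low end of the Rubisco genes. RCA had 3675, 5055 and 5539.8 CPM in submerged bak1-3 bkk1-1, against 11186, 12085 and 12065 CPM in mock. In Col RCA had 5964, 5869 and 5231 CPM under submergence, against 12632, 13657 and 13233 CPM in mock. All submerged libraries lay below all mock libraries, at -1.31 ± 0.14 in bak1-3 bkk1-1 and -1.21 ± 0.14 in Col. RBCS1B had 358, 392 and 509.9 CPM in submerged bak1-3 bkk1-1, against 888, 877 and 921 CPM in mock, and 592, 376 and 366 CPM in submerged Col, against 1209, 1051 and 1243 CPM in mock. Its log2 fold changes were -1.09 ± 0.17 (adjusted p = 5.91e-05) and -1.39 ± 0.17 (adjusted p = 6.24e-06). RBCS2B changed least, with -0.60 ± 0.14 (adjusted p = 0.00162) and -0.38 ± 0.14 (adjusted p = 0.0333), and in Col it was not called without submergence replicate 2 or 3 or without mock replicate 2 or 3, where its adjusted p reached 0.174. The summed RBCS genes had -0.84 ± 0.13 in bak1-3 bkk1-1 and -0.68 ± 0.13 in Col.

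PSAO, a small subunit on the side of mobile antenna, fell furthest of the PSA genes in bak1-3 bkk1-1, at -1.04 ± 0.13 (adjusted p = 2.21e-06), and had -0.66 ± 0.13 in Col. Of the photosystem I antenna, LHCA1 had -0.54 ± 0.12 in submerged bak1-3 bkk1-1 and -0.41 ± 0.12 in Col, and LHCA3 had -0.68 ± 0.14 and -0.46 ± 0.14. The minor antenna proteins beside the photosystem II core are encoded by LHCB4.1 and LHCB4.2 (CP29) and LHCB5 (CP26). LHCB4.1 had -0.65 ± 0.13 and -0.41 ± 0.13, LHCB4.2 had -0.87 ± 0.14 and -0.42 ± 0.14, and LHCB5 had -1.05 ± 0.13 and -0.80 ± 0.13. PSAF, which binds the electron donor plastocyanin at photosystem I, had -0.77 ± 0.13 and -0.50 ± 0.13. The main gene of the manganese-stabilising protein, PSBO1, had -0.60 ± 0.13 and -0.45 ± 0.13. The small photosystem II subunits PSBW, PSBX and PSBY had -0.67 ± 0.13, -0.998 ± 0.13 and -1.004 ± 0.12 in bak1-3 bkk1-1, and -0.44 ± 0.13, -0.68 ± 0.13 and -0.86 ± 0.12 in Col. PSAE-1, called in neither genotype, had 34.7, 53.5 and 40.1 CPM in submerged bak1-3 bkk1-1, against 50.2, 65.4 and 61.9 CPM in mock, and 57.4, 50.6 and 42.3 CPM in submerged Col, against 51.8, 49.3 and 75.2 CPM in mock.

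Few of these genes were called between bak1-3 bkk1-1 and Col. In mock 0 of the 40 genes were called in edgeR and 0 in DESeq2, where 0.721% of all tested genes were higher and 0.135% lower in the mutant, and 1 gene was lower at an unadjusted p below 0.05. Log2 fold changes of mutant over Col in mock ran from -0.38 to 0.13. The smallest p in each set belonged to RBCS1B (-0.38 ± 0.17, adjusted p = 0.531), LHCB2.3 (-0.19 ± 0.13), PSAN (-0.19 ± 0.15), PSBY (-0.14 ± 0.12) and LHCA1 (-0.07 ± 0.12). Nearest to 0 in their sets were LHCB4.1, PSAK, PSBR, LHCA4 and RBCS3B, between -0.13 and 0.01. Under submergence 4 genes were lower in the mutant and 0 higher, where 0.750% of all tested genes were lower and 0.629% higher. At an unadjusted p below 0.05, 25 were lower and 0 higher, and 0 were higher by DESeq2. The 4 were CAB2 (-0.59 ± 0.12, adjusted p = 0.0113), LHCB2.1 (-0.52 ± 0.11, adjusted p = 0.0252), LHCB2.2 (-0.60 ± 0.12, adjusted p = 0.0127) and PSAD-2, a stromal subunit that docks ferredoxin at photosystem I (-0.52 ± 0.12, adjusted p = 0.0366). LHCB2.2 had 410.0, 581 and 542 CPM in the mutant under submergence, against 806, 757 and 766 CPM in Col under submergence, without overlap. Not called but first in their sets by p were PSBP-1 (-0.40 ± 0.13, adjusted p = 0.145), RBCS1A (-0.37 ± 0.13) and LHCA4 (-0.35 ± 0.13). Nearest to 0 were LHCB2.3 (0.03 ± 0.13), PSBR (-0.07 ± 0.13), RBCS1B (-0.08 ± 0.17), LHCA1 (-0.20 ± 0.12) and PSAL (-0.20 ± 0.12). The summed LHCB2 genes were not called, at -0.46 ± 0.12 (adjusted p = 0.0696). With any of the 3 submerged Col libraries left out the count was 2. DESeq2 called 11 lower, where it called 395 of 20933 tested genes lower and 280 higher. The test of whether the mutant responded differently to submergence called 0 genes, where 0.00968% of all tested genes were higher and 0.0290% lower. For that test 7 genes were lower at an unadjusted p below 0.05. DESeq2 called 2, both lower, where it called 61 of 19969 tested genes lower and 34 higher. The value furthest from 0 was that of LHCB2.2, at -0.68 ± 0.17 (adjusted p = 0.231). First by p in the other sets were PSAD-2 (-0.48 ± 0.17), LHCA4 (-0.36 ± 0.18), PSBX (-0.32 ± 0.18) and RBCS1B (0.30 ± 0.24), none of them called. The values nearest to 0 were -0.08 ± 0.18 for PSBR, -0.10 ± 0.19 for RCA, -0.13 ± 0.17 for LHCA1, -0.17 ± 0.16 for PSAL and 0.22 ± 0.18 for LHCB2.3.

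Summed markers of other tissues also differed with submergence in the bak set. The 14 root markers, none of them at 0 in all libraries of a group, summed to 1220.5 to 1298 CPM in submerged bak1-3 bkk1-1, against 2688 to 2946 CPM in mock. In Col they summed to 1364 to 1684 CPM under submergence, against 3241 to 3334 CPM in mock. From 88.4% to 95.8% of these sums came from 1 gene, PYK10, a beta-glucosidase of root ER bodies, so they mostly show that gene. Of the 14, 4 rose and 2 fell in bak1-3 bkk1-1, where 26.3% of all tested genes rose and 26.4% fell. In Col 3 rose and 1 fell, where 25.4% of all tested genes rose and 24.1% fell. The numbers that rose lay near the shares of all genes. The seed sums given above were high in submerged Col and not in submerged bak1-3 bkk1-1, where 3 of the 12 seed genes were at 0 in all 3 libraries. The part of either in the results was not tested.

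**Figure D2:**
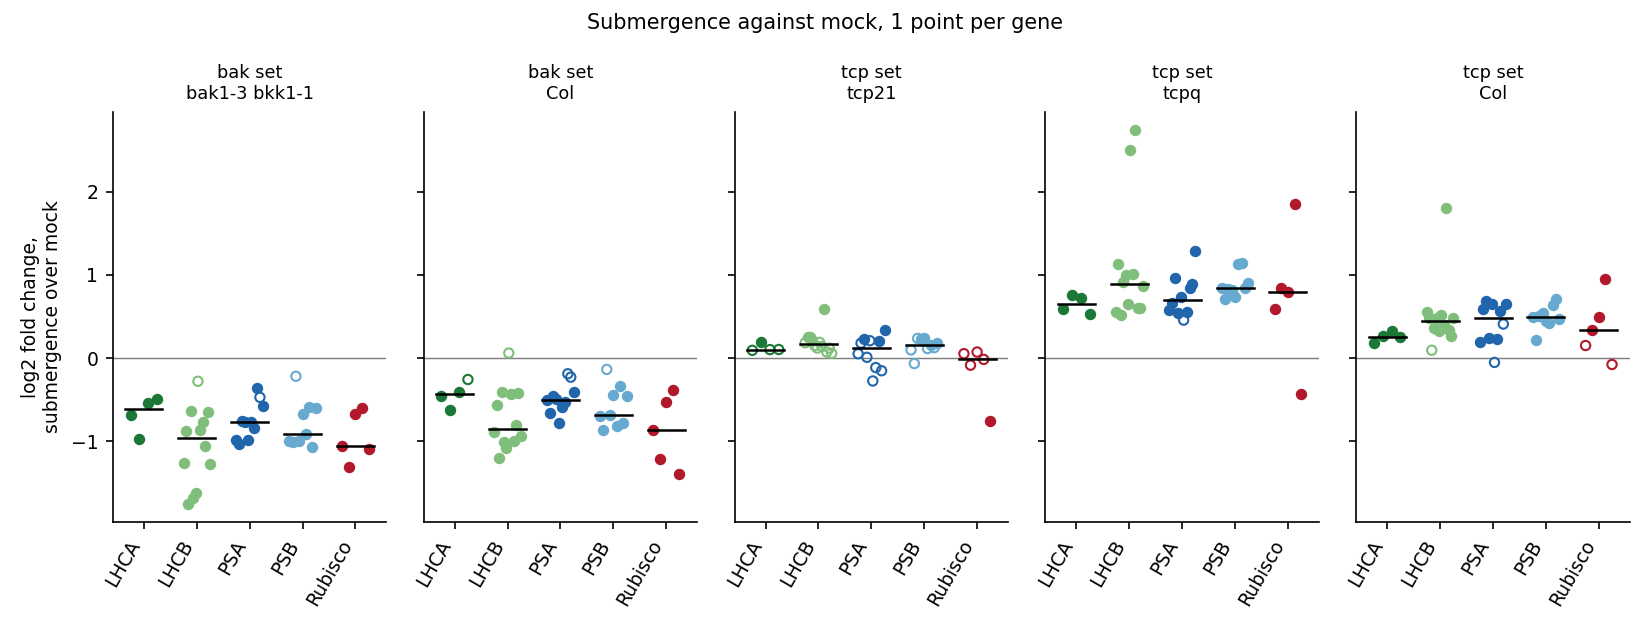
Log2 fold change of submergence over mock for each of the 40 tested genes, by gene set, in the mutants and Col of both sets. Filled points passed the test at an adjusted p below 0.05, open points did not, and black lines are medians of a set. The bak-set medians lie between -1.06 and -0.44, and the tcp-set medians lie at or above -0.01.

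In the tcp set the same genes were higher under submergence in Col. There 35 of the 40 genes rose and 0 fell, where 27.1% of all tested genes rose and 22.9% fell, and 0 fell at an unadjusted p below 0.05 or by DESeq2. The median log2 fold change was 0.43, against 0.04 over all genes. Of the 40 genes, 31 were called lower in bak-set Col and higher in tcp-set Col, and 0 were called in the same direction in both. Since each set has its own Col and the labels do not give its culture or treatment in more detail, the set and the direction cannot be told apart. Without the Col mock library whose labels conflict, 32 genes rose and 0 fell. Scaling by library totals alone moved the median of all genes to -0.14, with 3759 of 20385 tested genes higher and 6993 lower. It left 26 of the 40 genes higher and 1 lower, with LHCA3 at -0.00065 in place of 0.18 ± 0.06.

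LHCB2.3 rose the most in tcp-set Col. It had 1645, 1632 and 1775 CPM under submergence, against 470.4, 522 and 450.3 CPM in mock, a log2 fold change of 1.81 ± 0.09 (adjusted p = 8.11e-14). Its share of the summed LHCB2 counts was 16.1% ± 0.909 under submergence, against 6.76% ± 0.481 in mock (SD, n = 3). RBCS2B followed among the Rubisco genes, with 4521, 4845 and 4296 CPM under submergence, against 2295, 2463 and 2283 CPM in mock, and 0.96 ± 0.08 (adjusted p = 2.48e-11). Neither group overlapped its mock group. The PSBQ genes of the oxygen-evolving complex rose too, with 0.71 ± 0.07 for PSBQA and 0.64 ± 0.06 (adjusted p = 6.1e-10) for PSBQ-2. In photosystem I, PSAK, on the antenna side, had 0.69 ± 0.08 (adjusted p = 2.08e-08), and PSAN, on the lumenal side, had 0.65 ± 0.08. All 4 LHCA genes rose, by 0.18 to 0.32, LHCA4 at 0.26 ± 0.06 (adjusted p = 0.000893) with the smallest p. PSBY was nearest to 0 of the PSB genes, at 0.22 ± 0.07 (adjusted p = 0.0122).

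Some genes of the set did not follow in tcp-set Col. CAB2 had 6636, 6922 and 6823 CPM under submergence, against 5483, 7205 and 6391 CPM in mock, with overlap (0.10 ± 0.08, adjusted p = 0.352). RBCS1B had 512, 549 and 519.9 CPM, against 543, 609 and 515 CPM (-0.08 ± 0.07, adjusted p = 0.378). RBCS1A, PSAG and PSAE-1 were also not called, at 0.15 ± 0.07 for RBCS1A, -0.05 ± 0.23 for PSAG and 0.41 ± 0.19 for PSAE-1. Summed over paralogs the log2 fold changes were 0.33 ± 0.08 for LHCB1, 0.55 ± 0.07 for LHCB2 and 0.39 ± 0.07 for RBCS. Within the RBCS sum the share of RBCS2B was 19.7% ± 0.507 under submergence, against 13.3% ± 0.431 in mock, and that of RBCS1A was 45.2% ± 0.578, against 53.1% ± 0.366.

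**Figure D3:**
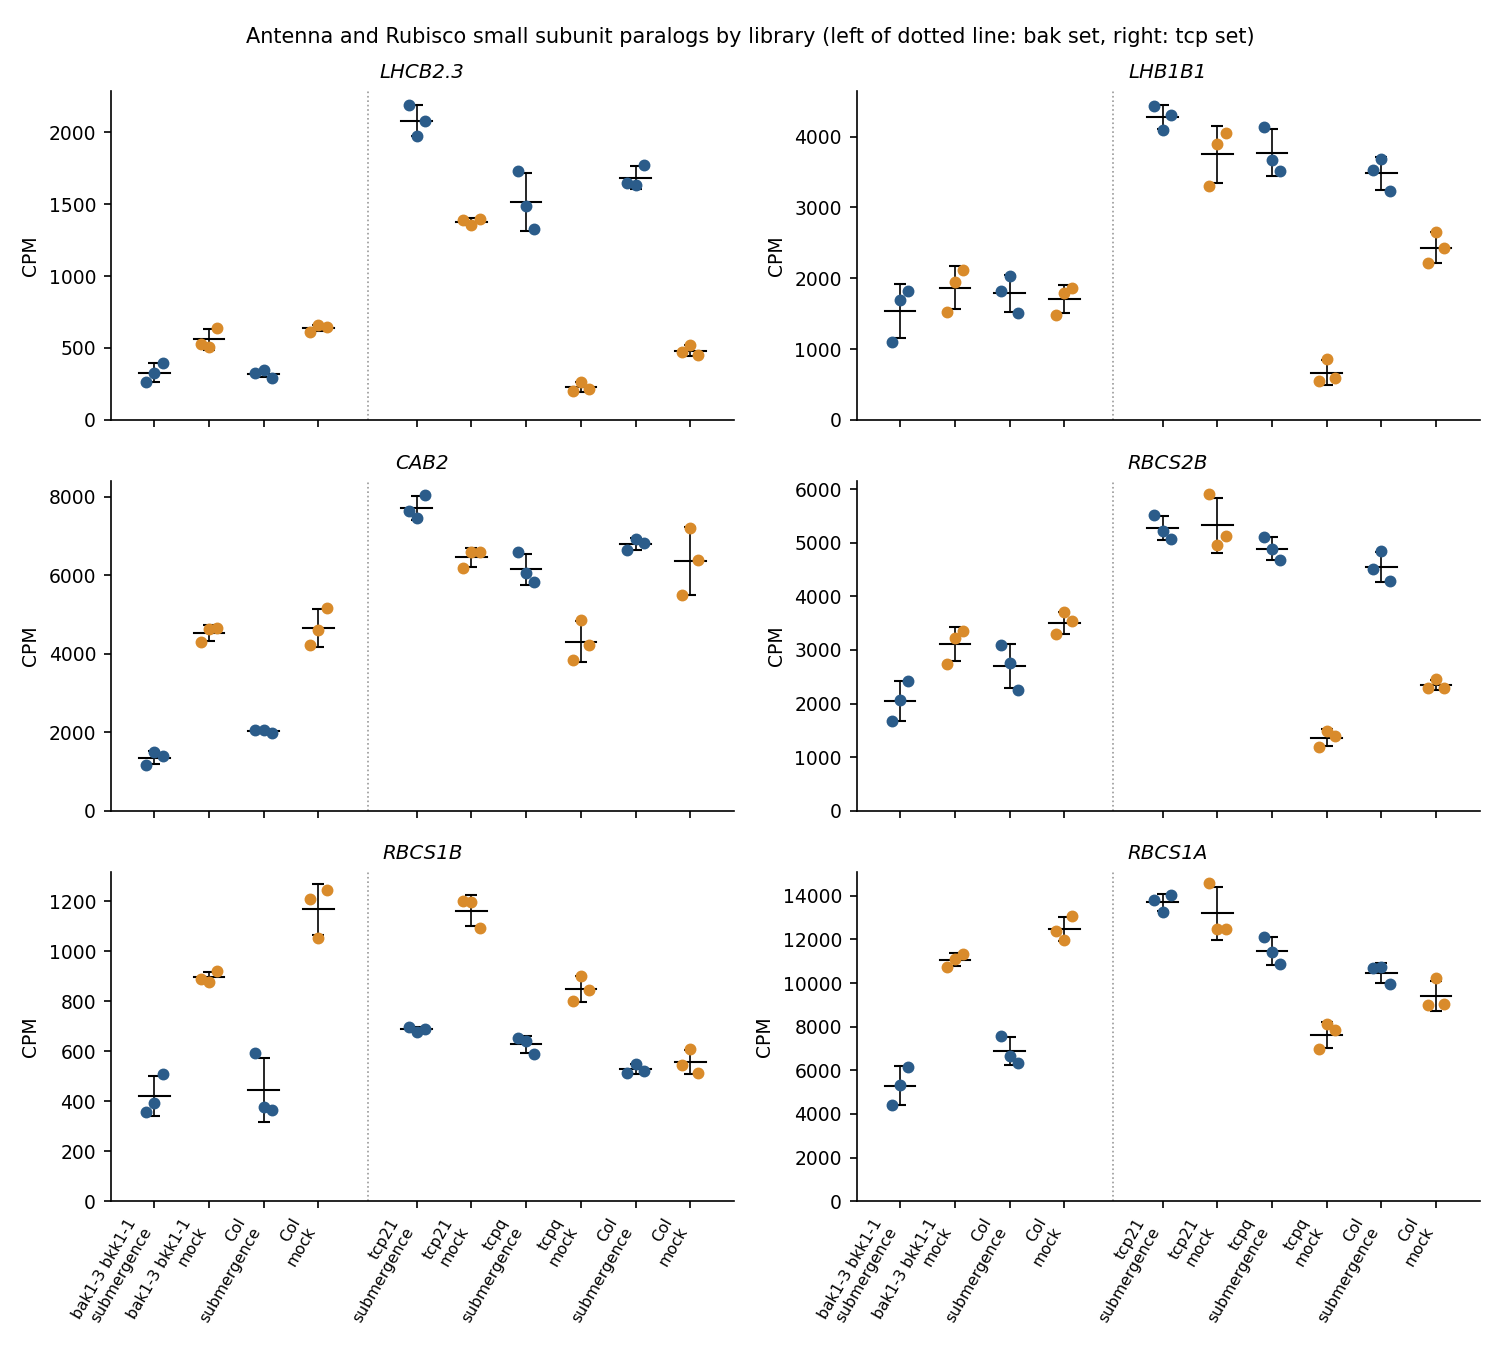
CPM of 6 paralogs, 3 of the photosystem II antenna and 3 of the Rubisco small subunit, 1 point per library, with submergence in blue and mock in orange. Lines and bars give the mean and SD of 3 libraries. LHCB2.3 lies between 202 and 266 CPM in tcpq mock and between 1325 and 2190 CPM in all submerged tcp-set libraries, and RBCS1B is higher in tcp21 mock than in tcp21 under submergence.

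The line tcp21 differed from Col mostly in mock, where its levels were higher. In mock 29 of the 40 genes were higher in tcp21 and 0 lower, where 23.8% of all tested genes were higher and 23.0% lower, and 0 were lower at an unadjusted p below 0.05 or by DESeq2. All 5 Rubisco genes were among them, with a median of 0.74, and so were 11 of 12 LHCB (0.36), 7 of 9 PSB (0.30), 5 of 10 PSA (0.26) and 1 of 4 LHCA genes (0.15). The median over all tested genes was 0.0042. PSBQA (0.53 ± 0.07, adjusted p = 6.21e-07) and LHCA3 (0.19 ± 0.06, adjusted p = 0.0151) had the smallest p of the PSB and LHCA genes, and RBCS1A (0.49 ± 0.07) was nearest to 0 of the Rubisco genes. Without the Col mock library whose labels conflict, 23 genes were higher. Organelle-encoded counts were also highest in tcp21, and the 14 root markers summed to 2298 to 2564 CPM in tcp21 mock, against 1799 to 2107 CPM in Col mock, with PYK10 as 91.5% and 93.6% of the sums. Their part in the result was not tested.

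LHCB2.3 and the RBCS genes led the differences of tcp21 in mock. LHCB2.3 had 1388, 1352 and 1397 CPM in tcp21, against 470.4, 522 and 450.3 CPM in Col, a log2 fold change of 1.52 ± 0.09 (adjusted p = 2.92e-12). RBCS2B had 5918, 4959.6 and 5121 CPM, against 2295, 2463 and 2283 CPM in Col (1.18 ± 0.08), and RBCS1B had 1199.8, 1195 and 1092 CPM, against 543, 609 and 515 CPM in Col (1.07 ± 0.07, adjusted p = 5.27e-13). None of these 3 overlapped Col. RCA had 0.58 ± 0.06 and PSAD-1, the second ferredoxin-docking gene, had 0.58 ± 0.07 (adjusted p = 5.25e-08). CAB2 was not called, with 6173, 6584 and 6594 CPM in tcp21, against 5483, 7205 and 6391 CPM in Col (0.02 ± 0.08). Neither were LHCA4, PSAO, PSAN, PSBR and PSBW, with values from -0.11 to 0.05. Among these PSAO (-0.04 ± 0.10) and PSBW (-0.08 ± 0.07) were nearest to 0 in their sets.

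Under submergence the difference of tcp21 from Col was mixed. There 7 of the 40 genes were higher and 6 lower in tcp21, where 12.3% of all tested genes were higher and 14.4% lower. Both numbers lay near the shares of all genes. The 4 RBCS genes were higher, by 0.21 for RBCS2B to 0.39 for RBCS1A, as were LHCB2.3 (0.30 ± 0.09), PSAD-1 (0.24 ± 0.07) and PSAD-2 (0.24 ± 0.07). The lower ones were PSAN (-0.36 ± 0.08, adjusted p = 0.00140), PSAO (-0.45 ± 0.10), PSAH2 (-0.28 ± 0.10) and PSAK (-0.21 ± 0.08) of photosystem I, and PSBR (-0.38 ± 0.12) and PSBW (-0.28 ± 0.07) of photosystem II. PSAN had 2064, 1919 and 1823 CPM in tcp21, against 2429.8, 2241 and 2803 CPM in Col, without overlap. The smallest p among the higher genes was that of RBCS1B (0.39 ± 0.07, adjusted p = 0.000160). Nearest to 0 in their sets were LHCA2 (0.01 ± 0.07), PSAG (0.04 ± 0.23), LHCB3 (-0.05 ± 0.06), PSBQA (-0.05 ± 0.07) and RCA (0.16 ± 0.06), none of them called. LHCA3, first by p of the LHCA genes, was at 0.10 ± 0.06 (adjusted p = 0.227). The count of lower genes was 2 without Col submergence replicate 3, 2 without tcp21 submergence replicate 3 and 3 without tcp21 submergence replicate 2.

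Within tcp21 fewer of the genes were called under submergence. Here 12 of the 40 genes rose and 1 fell, where 24.1% of all tested genes rose and 24.7% fell. The number that rose lay near the share of all genes. The median was 0.12, against -0.02 over all genes. LHCB2.3 rose by 0.59 ± 0.09 (adjusted p = 7.38e-06), with 2190.2, 1973 and 2079 CPM under submergence, against 1388, 1352 and 1397 CPM in mock, and PSAN by 0.34 ± 0.08. PSBX, a small subunit of photosystem II, rose by 0.23 ± 0.07 (adjusted p = 0.00608) and LHCA4 by 0.19 ± 0.06 (adjusted p = 0.0120). The values nearest to 0 in these sets were 0.01 ± 0.06 for PSAF, 0.06 ± 0.06 for LHCB3, -0.06 ± 0.07 for PSBY and 0.09 ± 0.06 for LHCA3, none of them called. RBCS1B fell, with 698, 678 and 688 CPM, against 1199.8, 1195 and 1092 CPM in mock (-0.76 ± 0.07, adjusted p = 2.14e-10). RBCS2B had 5531, 5227 and 5076 CPM, against 5918, 4959.6 and 5121 CPM in mock, with overlap (-0.01 ± 0.08). The number that rose was 4 without tcp21 submergence replicate 1 and 7 without tcp21 mock replicate 1. Scaling by library totals alone moved the median of all genes to -0.18, with 3489 of 20385 tested genes higher and 7372 lower. It gave 2 of the 40 genes higher and 6 lower. The median of the 40 genes was then -0.04, so the direction at the median depends on the scaling. The root markers summed to 1566 to 1674 CPM in submerged tcp21, against 2298 to 2564 CPM in mock. PYK10 made up 90.6% and 91.5% of these sums, and the part of the root markers was not tested.

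The submergence response of tcp21 was lower than that of Col in 23 of the 40 genes and higher in 0, where 16.3% of all tested genes were lower and 14.7% higher in this interaction test, and 0 were higher at an unadjusted p below 0.05 or by DESeq2. By set these were 5 of 12 LHCB, 7 of 10 PSA, 7 of 9 PSB, 4 of 5 Rubisco and 0 of 4 LHCA genes. The interaction, which is the log2 fold change in tcp21 minus that in Col, was -1.22 ± 0.13 (adjusted p = 1.33e-07) for LHCB2.3 and -0.97 ± 0.11 (adjusted p = 6.82e-08) for RBCS2B. For PSBQA it was -0.59 ± 0.10 (adjusted p = 5.53e-05). PSAK was at -0.46 ± 0.11 (adjusted p = 0.00179), and LHCA1, first by p of the LHCA genes, at -0.22 ± 0.15 was not called (adjusted p = 0.285). The values nearest to 0 were -0.07 ± 0.09 for LHCA4, -0.10 ± 0.10 for RBCS1A, -0.14 ± 0.10 for PSAD-2, -0.14 ± 0.12 for CAB1 and -0.20 ± 0.10 for PSBW, none of them called. CAB2, the 1 gene with a value above 0, was at 0.16 ± 0.12 and was not called. Without the Col mock library whose labels conflict, 16 genes were lower.

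The line tcpq differed from Col in mock in the other direction. In mock 37 of the 40 genes were lower in tcpq and 1 higher, where 22.6% of all tested genes were lower and 25.8% higher. All 4 LHCA, 12 LHCB and 9 PSB genes tested were lower, with medians of -0.51, -0.55 and -0.42, and so were 9 of 10 PSA genes (-0.40) and 3 of 5 Rubisco genes (-0.30). The median of all tested genes was 0.04, and 0.15 under scaling by library totals, where 33 of the 40 genes were lower and 1 higher. Under that scaling 3720 of 20385 tested genes were lower and 6798 higher. Without the Col mock library whose labels conflict, 37 were lower. The root markers summed to 2262 to 2279 CPM in tcpq mock, against 1799 to 2107 CPM in Col mock. PYK10 made up 95.0% and 93.6% of these sums, so they mostly show that gene. The part of the root markers in the result was not tested.

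LHB1B1 was the gene furthest below Col. It had 546, 867 and 590.5 CPM in tcpq mock, against 2218, 2649 and 2423 CPM in Col mock, a log2 fold change of -1.86 ± 0.15 (adjusted p = 4.47e-08). It made up 4.43% ± 0.595 of the LHCB1 counts in tcpq mock, against 10.3% ± 0.338 in Col mock. The other LHCB1 genes were lower by less, -0.77 ± 0.08 for CAB3, -0.56 ± 0.08 for CAB2 and -0.53 ± 0.08 for CAB1. LHCB2.3 had 202, 266 and 212 CPM in tcpq mock, against 470.4, 522 and 450.3 CPM in Col mock (-1.09 ± 0.09, adjusted p = 5.89e-10). PSAN was at -0.81 ± 0.08 (adjusted p = 1.85e-09), PSBO2 at -0.75 ± 0.07, PSBQ-2 at -0.69 ± 0.06 (adjusted p = 1.17e-10) and LHCA4 at -0.62 ± 0.06 (adjusted p = 1.76e-09). Nearest to 0 were LHCB6 (-0.22 ± 0.08), PSBX (-0.25 ± 0.07) and LHCA2 (-0.31 ± 0.07), all called, and PSAG (-0.29 ± 0.23, adjusted p = 0.322), not called.

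The RBCS genes split in tcpq. RBCS2B had 1183, 1488 and 1402 CPM in tcpq mock, against 2295, 2463 and 2283 CPM in Col mock (-0.79 ± 0.08, adjusted p = 9.55e-10). RBCS1B, which lies beside RBCS2B and RBCS3B on chromosome 5, had 799.8, 901 and 845 CPM in tcpq mock, against 543, 609 and 515 CPM in Col mock (0.61 ± 0.07, adjusted p = 1.61e-08). So RBCS2B was lower and RBCS1B higher than every Col mock library. RBCS1A was at -0.30 ± 0.07, and RBCS3B at -0.16 ± 0.07 was not called (adjusted p = 0.0607). RBCS1B and RBCS3B share 7.47% and 12.1% of their 100-base windows, and RBCS2B shares 0 with the other members.

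Nearly the whole set rose under submergence in tcpq. There 38 of the 40 genes rose under submergence and 1 fell, where 32.8% of all tested genes rose and 30.6% fell. The medians were 0.89 for LHCB, 0.85 for PSB, 0.80 for Rubisco, 0.70 for PSA and 0.65 for LHCA genes. LHB1B1 had 4142, 3666 and 3514 CPM under submergence, against 546, 867 and 590.5 CPM in mock (2.50 ± 0.15, adjusted p = 8.5e-10). LHCB2.3 had 1730.1, 1486 and 1325 CPM, against 202, 266 and 212 CPM in mock (2.74 ± 0.10, adjusted p = 1.08e-17). RBCS2B had 5114, 4882 and 4677 CPM, against 1183, 1488 and 1402 CPM in mock (1.85 ± 0.08, adjusted p = 4.59e-18). In each of these 3 genes all submerged libraries lay above all mock libraries. PSBQ-2 rose by 1.14 ± 0.06 (adjusted p = 6.83e-16), PSAN by 1.29 ± 0.08 and LHCA4 by 0.76 ± 0.06. Nearest to 0 were CAB2 (0.52 ± 0.08), LHCA2 (0.53 ± 0.07) and PSBY (0.71 ± 0.07), all called, and PSAG (0.46 ± 0.23, adjusted p = 0.0949), not called. RBCS1B was the 1 gene that fell, with 653, 640.3 and 589 CPM, against 799.8, 901 and 845 CPM in mock (-0.44 ± 0.07, adjusted p = 2.85e-06). Library totals alone moved the median of all genes to -0.30 and again gave 38 higher and 1 lower. Under that scaling 4454 of 20385 tested genes were higher and 9515 lower.

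Between tcpq and Col under submergence 1 gene was higher and 2 were lower, where 8.70% of all tested genes were higher and 7.82% lower. PSAO had 1646, 1411 and 1495 CPM in tcpq, against 2070.4, 1971 and 2282 CPM in Col (-0.47 ± 0.10, adjusted p = 0.00206). PSBQ-2 was lower as well (-0.18 ± 0.06, adjusted p = 0.0348) and RBCS1B higher (0.25 ± 0.07, adjusted p = 0.0109). RBCS1B was not called without Col submergence replicate 1 or tcpq submergence replicate 1. The number of lower genes was 1 without Col submergence replicate 1 or 3 or tcpq submergence replicate 2 or 3, and 4 without Col mock replicate 1. Values of the 40 genes ran from -0.47 to 0.25. Not called but first by p in their sets were LHCB6 (-0.22 ± 0.08, adjusted p = 0.0764) and LHCA4 (-0.12 ± 0.06). The values nearest to 0 were 0.02 ± 0.06 for RCA, -0.02 ± 0.07 for LHCB4.1, 0.03 ± 0.07 for PSAD-1, 0.04 ± 0.07 for PSBX and -0.04 ± 0.07 for LHCA2.

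The submergence response of tcpq exceeded that of Col in 32 of the 40 genes and was lower in 1, where 17.5% of all tested genes were higher and 17.1% lower in the interaction test. By set 4 of 4 LHCA, 11 of 12 LHCB, 7 of 9 PSB, 6 of 10 PSA and 4 of 5 Rubisco genes were higher. LHB1B1 had the largest interaction, 1.98 ± 0.20 (adjusted p = 1.9e-06), and LHCB6 the one nearest 0, -0.0034 ± 0.12, with log2 fold changes of 0.55 ± 0.08 in tcpq and 0.55 ± 0.08 in Col. RBCS2B was at 0.89 ± 0.11 (adjusted p = 1.45e-07) and RBCS1B at -0.36 ± 0.10 (adjusted p = 0.00447). PSBO2 was at 0.71 ± 0.10 (adjusted p = 1.34e-06), PSAN at 0.64 ± 0.11, LHCA4 at 0.50 ± 0.09 and, nearest to 0 in their sets but called, RBCS3B at 0.31 ± 0.10 and LHCA2 at 0.28 ± 0.11. PSAO at 0.07 ± 0.14 and PSBQA at 0.14 ± 0.10 were not called. Under scaling by library totals 20 genes were higher and 1 lower, with the median of all genes at -0.16. Of the 20385 tested genes, 2724 were then higher and 4945 lower.

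**Figure D4:**
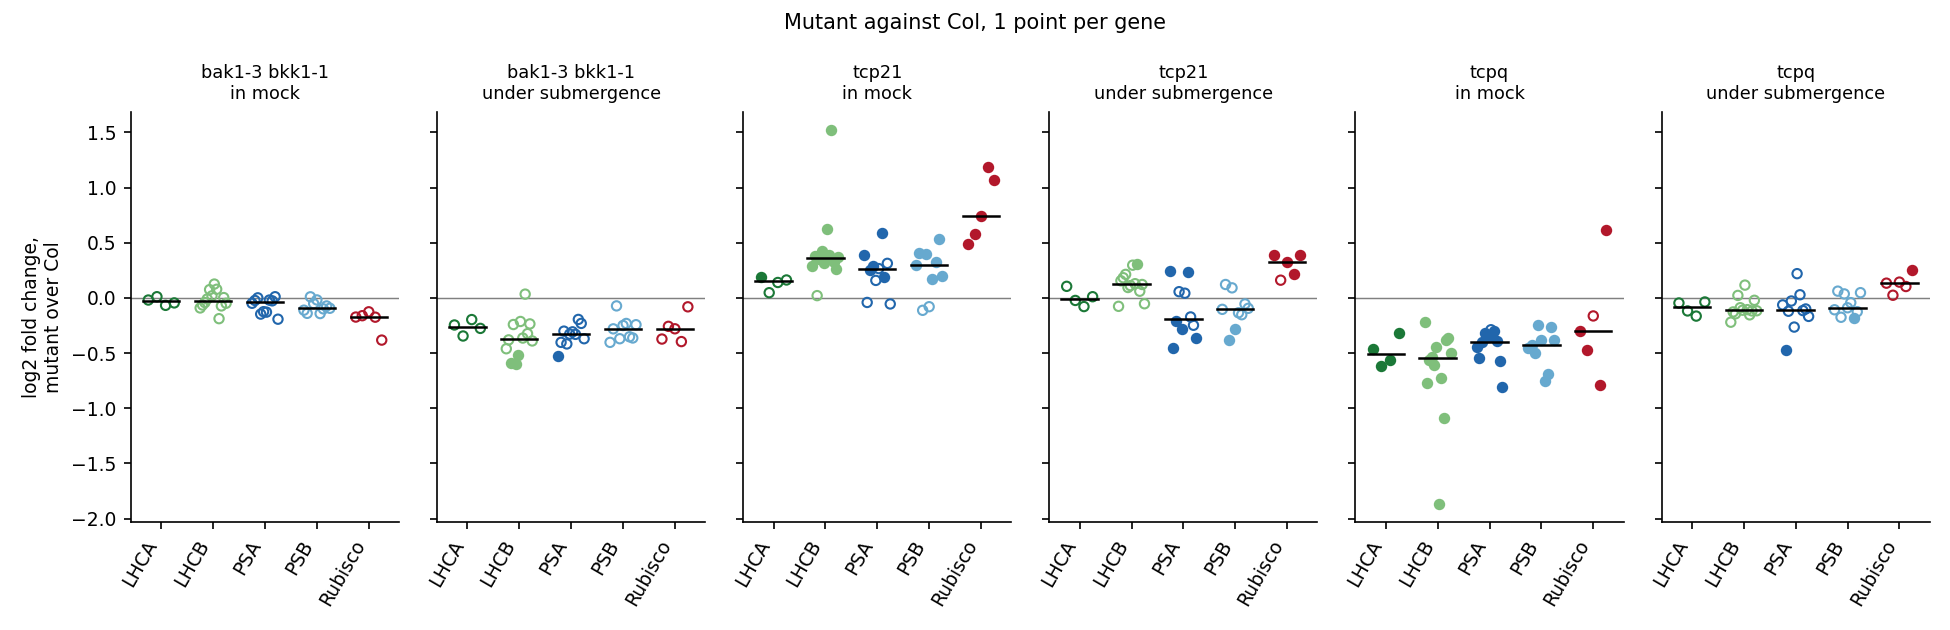
Log2 fold change of each mutant over Col for each of the 40 tested genes, by gene set, in mock and under submergence. Filled points passed the test at an adjusted p below 0.05, open points did not, and black lines are medians of a set. In mock the medians lie between 0.15 and 0.74 in tcp21 and between -0.55 and -0.30 in tcpq, and under submergence the tcpq medians lie between -0.11 and 0.13.

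Other photosynthesis genes, listed by role, fell in the bak set and moved in part apart from the 40 genes in the tcp set. In submerged bak1-3 bkk1-1 and Col of the bak set, where 26.4% and 24.1% of all tested genes fell, 15 and 15 of 15 Calvin cycle genes fell, 13 and 13 of 15 chlorophyll synthesis genes, 11 and 10 of 11 genes of electron transport and ATP synthase, 8 and 7 of 10 further photosystem genes, and 4 and 4 of 6 regulators, and none rose. HEMA1, which starts tetrapyrrole synthesis, was at -1.55 ± 0.11 in bak1-3 bkk1-1 and -1.83 ± 0.11 in Col, and GUN5 (CHLH), a subunit of magnesium chelatase, at -1.81 ± 0.12 and -1.80 ± 0.12. The Calvin cycle dehydrogenase gene GAPA-2 was at -1.47 ± 0.11 and -1.47 ± 0.11 and the aldolase gene FBA1 at -1.34 ± 0.11 and -1.43 ± 0.11. Lhca6, which links photosystem I to the NDH complex, was at -1.73 ± 0.15 and -1.56 ± 0.15, and NPQ4 (PSBS), needed for the fast part of photoprotection, at -1.22 ± 0.10 and -1.05 ± 0.10. The ferredoxin gene FD1 was at -1.42 ± 0.12 and -1.20 ± 0.12.

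In submerged tcpq, where 32.8% of all tested genes rose and 30.6% fell, 12 of 15 Calvin cycle genes rose and 1 fell, 9 of 11 electron transport genes rose and 1 fell, and 10 of 10 further photosystem genes rose. In submerged Col of the tcp set, where 27.1% rose and 22.9% fell, 10 of 15 Calvin cycle genes rose and 2 fell, 9 of 11 electron transport genes rose and 0 fell, and 8 of 10 further photosystem genes rose and 0 fell. In submerged tcp21, where 24.1% rose and 24.7% fell, 0 of 15 Calvin cycle genes rose and 5 fell, 4 of 11 electron transport genes rose and 1 fell, and 1 of 10 further photosystem genes rose and 2 fell. The numbers that fell in tcp21 among the Calvin cycle and further photosystem genes lay near the share of all genes. LHCB4.3, a CP29-type antenna gene, was at 1.94 ± 0.10 in tcpq and 1.40 ± 0.10 in Col. The Calvin cycle phosphatase gene SBPASE was at 1.06 ± 0.07 in tcpq and 0.72 ± 0.07 in Col, and the transketolase gene AT3G60750, which fell in all 3 lines, at -0.46 ± 0.07 in tcp21, -0.44 ± 0.07 in tcpq and -0.29 ± 0.07 in Col. FNR2, a ferredoxin-NADP reductase, fell in tcpq (-0.38 ± 0.07). Of 15 chlorophyll synthesis genes 6 rose and 6 fell in submerged tcpq, and 4 rose and 6 fell in submerged Col. The numbers that rose in both, and the number that fell in tcpq, lay near the shares of all genes. The list includes G4 (CHLG), the chlorophyll synthase, at -0.96 ± 0.07 in tcpq and -0.48 ± 0.07 in Col, and HEMA1, at 0.66 ± 0.07 and 0.29 ± 0.07.

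In mock the Calvin cycle list moved in the direction of the 40 genes in both tcp lines. In tcp21 mock, where 23.8% of all tested genes were higher and 23.0% lower than in Col, 12 of 15 Calvin cycle genes were higher and 1 lower, led by PGK1 (0.78 ± 0.06) and SBPASE (0.75 ± 0.07), and 4 of 11 electron transport genes were higher and 0 lower, led by FD1 (1.31 ± 0.08). In tcpq mock, where 22.6% of all tested genes were lower and 25.8% higher, 10 of 15 Calvin cycle genes were lower and 1 higher, led by GAPA (-0.65 ± 0.06) and FBA1 (-0.68 ± 0.08), and 8 of 11 electron transport genes were lower and 1 higher. The lower ones include PETE1, a plastocyanin gene (-0.76 ± 0.07), and the higher one was FD1 (0.55 ± 0.08). LHCB4.3 was at 1.92 ± 0.10 in tcp21 mock against Col. PORB, a protochlorophyllide reductase gene, was at 0.42 ± 0.10 in tcp21 and -1.05 ± 0.11 in tcpq.

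GLK1 (GPRI1 in the reference) and GLK2 are transcription factors known to activate antenna and chlorophyll synthesis genes. GLK1 had 18.7, 17.4 and 17.4 CPM in submerged tcpq, against 37.5, 31.1 and 39.0 CPM in mock. In Col of the tcp set it had 17.0, 19.4 and 18.004 CPM under submergence, against 57.5, 58.3 and 49.982 CPM in mock (-1.61 ± 0.09, adjusted p = 2.06e-14). GLK1 fell in both, by a log2 fold change of -1.01 ± 0.09 (adjusted p = 1.42e-10) in tcpq. Most of the 40 genes rose there, and the part of GLK1 in their levels was not tested. GLK2 was at -1.42 ± 0.08 in tcpq and -1.15 ± 0.08 in Col. In the bak set GLK1 had 31.9, 29.4 and 31.6 CPM in submerged bak1-3 bkk1-1, against 90.3, 94.1 and 105 CPM in mock, and 43.0, 25.5 and 34.6 CPM in submerged Col, against 81.5, 87.7 and 92.6 CPM in mock. SIG5 (SIGE in the reference), a sigma factor of the chloroplast RNA polymerase that is known to respond to stress and blue light, was higher in mock in both tcp lines. It had 304, 401 and 309 CPM in tcp21 mock and 316, 309.8 and 313 CPM in tcpq mock, against 72.3, 74.0 and 67.3 CPM in Col mock. The log2 fold changes were 2.25 ± 0.09 (adjusted p = 2.59e-17) in tcp21 and 2.14 ± 0.09 (adjusted p = 2.81e-17) in tcpq. In mock 29 of the 40 genes were called higher than Col in tcp21, where 23.8% of all tested genes were higher. In tcpq mock 37 were lower, where 22.6% of all tested genes were lower. The part of SIG5 in these levels was not tested. The early light-induced genes ELIP1 and ELIP2 were higher in mock in both lines as well, at 1.80 ± 0.19 and 0.56 ± 0.12 in tcp21 and at 2.42 ± 0.19 and 1.10 ± 0.12 in tcpq.

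Genes outside the set were ranked by how closely their log2 CPM followed the mean of the 40 genes. Of the closest genes, those with a symbol in the reference encode chloroplast proteins. Over the 12 libraries of the bak set the closest were CSP41A (Pearson r = 0.993), a chloroplast RNA-binding protein, CHLM (0.992), the magnesium protoporphyrin methyltransferase, and GS2 (0.991), the chloroplast glutamine synthetase. Over the 18 libraries of the tcp set they were AT5G58330 (0.993), CA1 (0.979), a chloroplast carbonic anhydrase, and CRB (0.979), a chloroplast RNA-binding protein. The libraries share groups and scaling, and the values describe these libraries only.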

How the data were processed

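The deposited files are 2 tables of read counts per gene, per the file headers, with 12 and 18 libraries. Reads were trimmed with fastp 0.23.1 and aligned with STAR 2.7.9a to TAIR10, per the submitters' processing notes. No label or header names the counting tool, annotation or strand setting. Library totals of 17466180 to 33957452 counts set the precision.

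Each table was fitted on its own, with all its groups, in R 4.3.3 with edgeR 4.0.16 (TMM scaling, filterByExpr, quasi-likelihood F test), and p-values were adjusted by Benjamini-Hochberg over 20666 genes (bak set) and 20385 genes (tcp set). The standard error given after ± of a log2 fold change was taken as its size divided by the square root of F, and is approximate. The LHCB1, LHCB2 and RBCS genes were also fitted as sums over paralogs. DESeq2 1.42.0, other scalings, no filter, a replicate block and leaving out each library were the alternatives. In simulated counts the fit called 87 of 100 genes changed 2-fold in bak1-3 bkk1-1 against Col in mock (20424 genes), and 89 of 100 in tcpq against Col in mock (20113 genes). False calls numbered 12 (8% of calls) and 3 (1.96% of calls) in the same order.

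The 41 genes and all other lists were chosen with earlier results of these data known. Any of the 41 may be named, and by rule each comparison gives the gene of each set with the smallest adjusted p, the one nearest 0 and called ones of opposite sign to the median of the set. For the other lists the rule takes the 2 smallest adjusted p and called ones of opposite sign, of which the text prints some, and a few of their genes are printed in further comparisons for contrast, chosen after their values were seen. No 2 libraries of a group had counts within sampling noise (smallest chi-square per degree of freedom 3.5). Symbols are those of RefSeq, which lists all 41 genes. Its build is named TAIR10.1, and positions are given on it alone.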

Additional observations from a re-analysis of the deposited data

Results flagged for a closer look

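These results were picked out because the submergence response of a mutant differed from that of Col in the interaction test of edgeR. Values are the log2 fold change in the mutant minus that in Col, with 3 libraries in each of the 4 groups of a test. In tcp21 the interaction was -1.22 for LHCB2.3, -0.97 for RBCS2B, -0.59 for PSBQA and -0.46 for PSAK. It was -0.34 for the summed LHCB2 genes and -0.36 for the summed RBCS genes. In tcpq it was 1.98 for LHB1B1, 0.89 for RBCS2B, 0.71 for PSBO2, 0.64 for PSAN, 0.50 for LHCA4, 0.31 for RBCS3B and 0.28 for LHCA2, and -0.36 for RBCS1B. For the summed genes of tcpq it was 0.64 for LHCB1, 0.44 for LHCB2 and 0.41 for RBCS. Both lines were set against the same Col libraries, one of which has conflicting labels. Their mock levels lay on opposite sides of Col for most of these genes, as given above. An interaction is also the mutant's difference from Col under submergence minus that in mock. In tcp21 these differences were 0.14 under submergence and 0.48 in mock for summed LHCB2, and 0.33 and 0.70 for summed RBCS. In tcpq they were -0.03 and -0.67 for summed LHCB1, -0.11 and -0.54 for LHCB2, and 0.13 and -0.27 for RBCS. What set the mock levels was not tested.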

How the results depend on the processing

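The values and counts that answer a comparison were each recomputed under settings other than leaving out a library, and 373 of these 388 recomputed values kept their direction and side of the threshold or stayed near the main count. DESeq2 called 11 genes lower in bak1-3 bkk1-1 than in Col under submergence, and 2 lower in the interaction. Over all tested genes it called 395 and 61 lower, against 155 and 6 with edgeR. The summed LHCB2 genes, not called between bak1-3 bkk1-1 and Col under submergence (adjusted p = 0.0696), were called lower there with library totals (-0.47), with the replicate block (-0.47) and with DESeq2 (-0.45). The other exceptions came with scaling by library totals alone in the tcp set, where the all-gene split was 3759 higher and 6993 lower in submerged Col, against 5527 and 4665 with TMM. That scaling gave 1 gene lower and summed LHCB1 at 0.15 in submerged Col. In submerged tcp21 it gave 2 higher and 6 lower, where 3489 of all tested genes were higher and 7372 lower. The sums there were at 0.067 (LHCB1), 0.045 (LHCB2) and -0.14 (RBCS, reversed). That scaling gave 10 genes lower in tcp21 and 4 lower in tcpq than in Col under submergence. Of all tested genes 3533 and 1712 were lower there. It gave 20 higher in the tcpq interaction, where 2724 of all tested genes were higher. It turned the sign of LHCA3 in submerged Col (-0.00065) and PSBQ-2 in submerged tcp21 (-0.0064), both called higher with TMM, of PSAF in submerged tcp21 (-0.15) and, in submerged tcpq, POR C (-0.070) and AT1G74470 (-0.048). The cause was not tested.

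Leaving out 1 library gave 2 to 4 genes lower in submerged bak1-3 bkk1-1 than in Col. It gave 4 to 14 higher in tcp21 under submergence, where the summed LHCB1 ran from 0.18 to 0.27 and LHCB2 from 0.18 to 0.25, neither called without tcp21 mock replicate 1 or tcp21 submergence replicate 1 or 3. Between tcp21 and Col under submergence it gave 2 to 7 lower, with summed LHCB1 from 0.20 to 0.23. For tcpq there it gave 0 to 1 higher and 1 to 4 lower. Same-numbered libraries did not deviate together (r from -0.09 to 0.07 in the bak set and -0.08 to 0.07 in the tcp set, with 5 of 12 and 6 of 18 libraries closest to their own number), so the numbers were not read as pairs.

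With 3 libraries a group, a difference not called may still exist: in simulated counts 51 of 100 genes changed 1.5-fold were called in bak1-3 bkk1-1 against Col in mock. Whole seedlings mix cell types, reads in overlaps with opposite-strand genes may have been added or dropped, and the treatment's length and light are not given in the labels used here.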
